A study of Phaseolus vulgaris with 12 samples.

Results

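The gene tables of this bean leaf study identify nearly all genes by a locus number, and only a small set also carries a symbol that says what the product is. These genes are described here. Members were all genes whose listed name differed from the locus identifier, apart from P5CS, DREB2A and PSI-N, which were set aside, and this left 149 of 27996 genes. The 149 members held 109 different symbols once numbered endings were removed, and 55 members shared 15 repeated symbols, such as the 17 genes named MLO. They lay on all 11 chromosomes, with 8 to 20 members on each. Members had a median of 6 exons, against 4 for all genes, and a median level of 17.7 TPM, against 5.64 TPM for all genes. In 7 members under 90% of the reads were unique.

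Trifoliate leaves of dwarf bean (Phaseolus vulgaris, genotype Dwarf messi) were taken for RNA sequencing in 4 groups. Drought 6PP plants came from seeds coated with the carrier polymer and 114 mM 6-pentyl-alpha-pyrone (6PP, a volatile lactone made by Trichoderma fungi) and went about 16 days without irrigation. Drought polymer plants had the same water regime but seeds coated with polymer alone. The 2 well-watered groups, 6PP and polymer, had the same coatings and were irrigated throughout, so all groups carried the polymer. Drought leaves were taken at wilting stage 3 of the study's visual scale, a stage of severe wilting in green leaves. Each of the 3 replicates per group was a pool of leaves from 5 plants, so p-values measure the spread between pools. Plants grew in 2 chambers, each with 5 trays of each coating. The methods do not tell how the water regimes were divided between the chambers. With that division unknown, effects of the chamber and of watering cannot be told apart.

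Usable tables covered 10 libraries with 39974999 to 55648172 gene reads, namely 1 of drought 6PP plants (replicate 3) and 3 of each other group. The drought 6PP library stood apart from the other 9 libraries. On genes it had 86.1% of its mapped reads, whose total was estimated, against 94.3% to 96.3%. Of its gene reads 7.997% were listed as intron reads, against 4.97% to 6.35%. With no second library of its group, its differences from others are given as values with no test, and the part that these properties have in them was not tested. Levels are given as CPM, gene reads relative to library size after TMM normalization, and as TPM (transcripts scaled to a fixed sum, which corrects for exon length) where genes are compared with each other. The leaf label was checked with members that mark tissues. The 2 genes RBCS_1 and RBCS_2, which encode the small subunit of Rubisco, averaged 26134 and 9213 TPM in well-watered polymer plants. The seed lectin gene DLEC2 had 9, 2 and 9 reads in the drought polymer libraries and 0 or 1 in each other library. The protease inhibitor genes BBI and bbi and the 3 leghemoglobin genes LBA_1 to LBA_3, which mark seeds and root nodules, had 0 reads in all 10 libraries. Of the other members listed as nodule and symbiosis proteins, RIC2 had 0 reads, but TrNARK had 34 to 244 reads in each library.

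The symbols cover a wide range of leaf functions. Plants that lose water close their stomata, slow photosynthesis and change the transport of water across membranes. Calcium sensors, phosphoinositide enzymes and DREB transcription factors relay such stress signals, and lipid transfer proteins, which carry lipids to the cell surface, are known as drought responsive in many plants. 

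In polymer plants, drought was compared with irrigation in 133 members that passed the filter on low counts, 89.3% of all members against 80.0% of all genes. A gene was called when it passed 3 limits together, 0.6 on the absolute log2 fold change, 0.01 on the FDR (Benjamini-Hochberg adjusted p) and 0.05 on the p after Bonferroni adjustment, in edgeR's quasi-likelihood test over all 22398 genes tested. Drought leaves had 14 members called higher (10.5% of the 133) and 13 called lower (9.77%). Over all genes tested, 5.12% were called higher and 7.20% lower. At an FDR of at most 0.05 alone, 37 members were higher (27.8%) and 39 lower (29.3%), against 27.3% and 28.9% of all genes. The median log2 fold change was -0.02 over the members and -0.01 over all genes. Of the 27 calls, 11 were lost when at least 1 of the 6 polymer libraries was left out, and 16 members were called without drought polymer replicate 2. The other 16 calls held under every alternative run. Losses named below for a gene are mainly those from a library left out, and some of these calls were also lost under other settings. With upper-quartile normalization, which moved the median of all genes to -0.10, 10 members were called higher and 14 lower. Over all genes tested, 956 were called higher and 1784 lower in that run. In bulk leaf tissue, fewer cells of a type and less RNA per cell cannot be told apart.

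**Figure D1:**
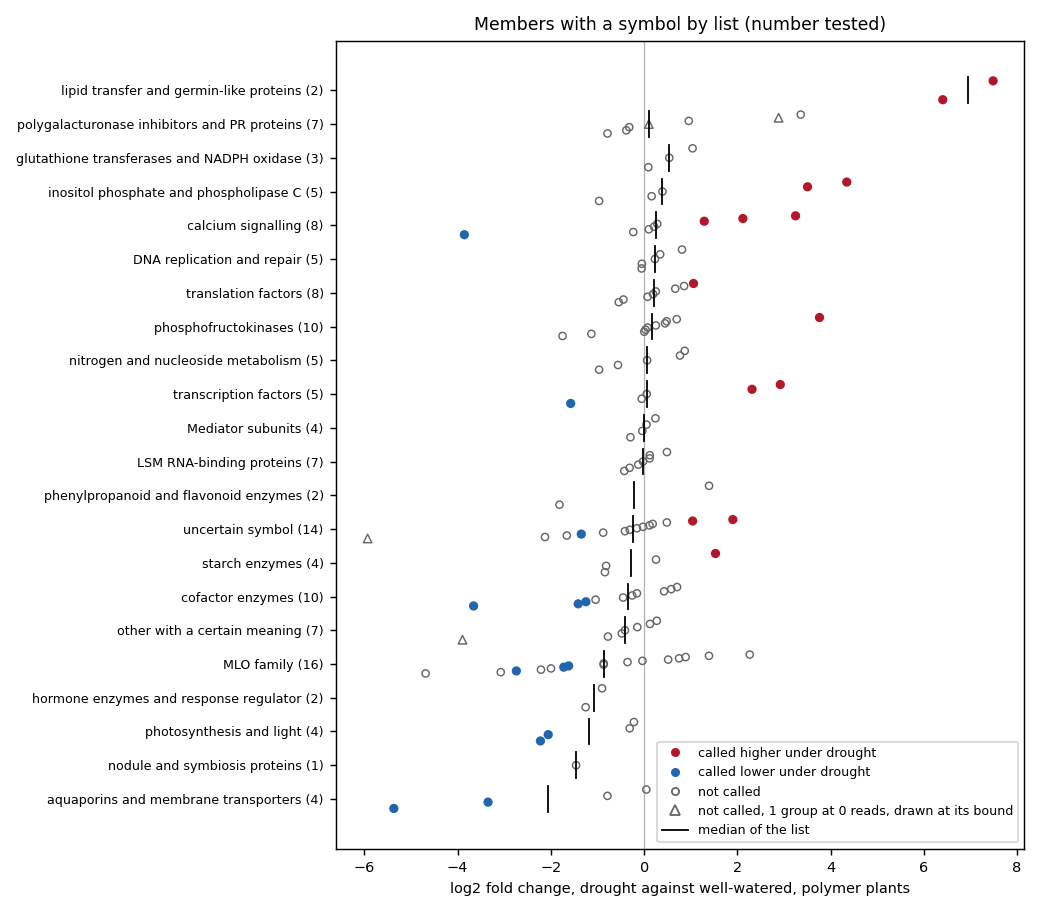
Log2 fold change of each tested member in drought against well-watered polymer plants, by list, with the number of members tested in parentheses. Red and blue points were called higher and lower, open circles were not called, open triangles are members with 0 reads in every library of a group (drawn at their bound) and black lines are list medians. The lipid transfer proteins lie farthest to the right, at 7.49 and 6.41, and the aquaporin Aqp1 is the called member farthest to the left, at -5.37.

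The called member with the largest increase and the most abundant member of drought leaves were both non-specific lipid transfer proteins, small secreted proteins that bind lipids and include food allergens. Pha v 3.0201 (chromosome 10, 17454685 to 17456340) had 8140, 8655 and 7359 CPM in drought polymer libraries, against 86.2, 94.5 and 104 CPM in well-watered polymer libraries. The groups lay far apart, and the gene rose by a log2 fold change of 6.41 ± 0.18 (SE, FDR = 1.5e-09). By mean TPM it ranked 1 of 27996 genes in drought polymer leaves (14278 TPM) and 877 in well-watered polymer leaves (161 TPM). In the drought 6PP library it had 1459 CPM, against 111, 125 and 93.1 CPM in well-watered 6PP libraries, so the drought 6PP value lay above every well-watered library but below all 3 drought polymer libraries. Pha v 3.0101 (chromosome 10, 15124292 to 15126129) had 296, 249.8 and 243 CPM in drought polymer libraries, against 1.29, 1.68 and 1.39 CPM in well-watered polymer libraries. It was close to absent from irrigated leaves, and rose by 7.49 ± 0.26 (SE, FDR = 3.6e-09). In 6PP plants it had 198 CPM in the drought library, against 2.002, 2.08 and 0.886 CPM in the well-watered libraries. Both calls held under each alternative run. The germin-like gene glp1, placed in the same list, had 0 reads in all libraries.

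Among the 5 genes of inositol phosphate and phosphoinositide metabolism, 2 rose and 3 were not called, with a median of 0.39 against -0.01 over all genes. MIPSV (chromosome 2, 42812520 to 42817020) encodes myo-inositol-1-phosphate synthase, which makes the inositol ring from glucose-6-phosphate. It had 2388, 3698 and 3659 CPM in drought polymer libraries, against 165, 156 and 159 CPM in well-watered polymer libraries. No library overlapped, and the log2 fold change was 4.35 ± 0.22 (SE, FDR = 4.15e-08). With 6PP coating, drought leaves had 3406 CPM, within the drought polymer range, against 187, 178 and 121 CPM in well-watered 6PP libraries. PLC1 encodes a phosphoinositide-specific phospholipase C and lies beside PLC2 and PLC3 within chromosome 1, 50261724 to 50280462. PLC1 had 168, 147 and 133 CPM in drought polymer libraries, against 12.6, 11.02 and 15.8 CPM in well-watered polymer libraries, and rose by 3.50 ± 0.18 (SE, FDR = 4.83e-08). Its neighbours differed from it in pattern. PLC2 had 84.5, 87.4 and 87.6 CPM under drought, against 88.3, 72.5 and 71.4 CPM when watered (log2 fold change 0.16 ± 0.11 SE, FDR = 0.22), and PLC3 stayed under 1 CPM in all libraries. In these genes 100% of reads were listed as unique, and the difference in response between the neighbours was not tested. The inositol polyphosphate kinase gene ipK2 was at 0.494 to 1.09 CPM in drought polymer libraries, against 1.13 to 2.53 CPM in well-watered polymer libraries, and was not called.

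Calcium signalling genes moved in both directions. CBL proteins are calcium sensors that bind and activate CIPK protein kinases, and calmodulin (CaM) is a general calcium sensor. Of 8 members, 3 rose, 1 fell and 4 were not called, and the median was 0.25. PvCIPK4 (chromosome 9, 13654577 to 13656673) had 449.9, 446 and 342 CPM in drought polymer libraries, against 42.96, 41.1 and 46.3 CPM in well-watered polymer libraries, and rose by 3.25 ± 0.16 (SE, FDR = 2.69e-08). PvCIPK2 had 371, 368 and 312 CPM in drought polymer libraries, against 85.6, 75.8 and 80.8 CPM in well-watered polymer libraries, and rose by 2.12 ± 0.13 (SE, FDR = 1.51e-07). PvCIPK3 had the opposite pattern. It had 4.36, 2.42 and 3.55 CPM in drought polymer libraries, against 58.5, 45.3 and 46.5 CPM in well-watered polymer libraries, and fell with a log2 fold change of -3.86 ± 0.22 (SE, FDR = 9.15e-08). The drought 6PP library showed the same arrangement of the kinases, with 489.9 CPM for PvCIPK4, 437 CPM for PvCIPK2 and 3.85 CPM for PvCIPK3, against 41.0 to 56.7, 66.9 to 91.2 and 37.8 to 55.5 CPM in well-watered 6PP libraries.

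The 3 calmodulin genes were the most abundant members of that list, at means over the 10 libraries of 348 TPM for CaM_1, 684 TPM for CaM_2 and 461 TPM for CaM_3. CaM_1 alone of them was called. It had 361, 315 and 301 CPM in drought polymer libraries, against 127, 131 and 142 CPM in well-watered polymer libraries (log2 fold change 1.29 ± 0.13 SE, FDR = 7.85e-06). This call was lost without each of the 6 polymer libraries in turn, with log2 fold changes of 1.21 to 1.34. CaM_2 had 403, 419 and 419.7 CPM under drought, against 359, 394 and 406 CPM when watered, and its groups overlapped. The sensor genes PvCBL1 and PvCBL2 had log2 fold changes of 0.21 and -0.23 and were not called.

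Of 5 tested transcription factors, 2 rose and 1 fell, with a median of 0.06. ROM2 (chromosome 10, 36976049 to 36980812) encodes a bZIP factor described in bean as a repressor of seed storage protein and lectin genes. It had 189, 191 and 165 CPM in drought polymer libraries, against 24.6, 20.8 and 26.6 CPM in well-watered polymer libraries, and rose by 2.92 ± 0.18 (SE, FDR = 1.61e-07). Both the drought 6PP library, at 154 CPM, and the drought polymer libraries lay above the well-watered 6PP libraries, at 36.6, 34.4 and 21.9 CPM. DREB factors bind dehydration-responsive promoter elements, and the 3 members with that name differed. DREB5A had 61.9, 47.6 and 47.7 CPM in drought polymer libraries, against 6.47, 11.7 and 13.4 CPM in well-watered polymer libraries (log2 fold change 2.31 ± 0.26 SE, FDR = 1.78e-05). That call was lost without each polymer library in turn (2.06 to 2.52). It was also lost under 7 other alternatives, among them exon reads (2.54), upper-quartile normalization and the TPM scale. Of its reads in drought polymer libraries, 38.1% were listed as intron reads although the gene is listed with 1 exon. DREB6B fell, with 3.22, 3.19 and 3.09 CPM in drought polymer libraries, against 10.9, 8.78 and 8.72 CPM in well-watered polymer libraries (log2 fold change -1.58 ± 0.16 SE, FDR = 7.93e-06). Its call was lost without each drought polymer library and without well-watered polymer replicates 2 and 3 (-1.63 to -1.47). DREB1F had 1 read in 1 library. KAP-2, a factor that binds the bean chalcone synthase promoter, had 29.8, 34.3 and 31.7 CPM in drought polymer libraries, against 29.97, 31.8 and 30.4 CPM in well-watered polymer libraries.

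Both aquaporin members fell. Aquaporins are channels that let water cross membranes, and TIP proteins sit in the vacuolar membrane. TIP1:1 (chromosome 1, 44550201 to 44551499) had 49.8, 74.8 and 74.1 CPM in drought polymer libraries, against 889, 575 and 561 CPM in well-watered polymer libraries, and its log2 fold change was -3.35 ± 0.27 (SE, FDR = 1.16e-06). In 6PP plants, the drought library had 54.3 CPM, inside the drought polymer range, against 771, 457 and 797 CPM in well-watered 6PP libraries. Aqp1 (chromosome 2, 5893704 to 5895921) had 0.236, 0.604 and 0.965 CPM in drought polymer libraries, against 25.2, 22.1 and 26.7 CPM in well-watered polymer libraries, and its log2 fold change was -5.37 ± 0.37 (SE, FDR = 3.82e-07). Drought leaves of 6PP plants were again low, at 0.726 CPM, against 15.5, 13.7 and 24.2 CPM in well-watered 6PP libraries. Neither of the other transport members was called. The amino acid permease gene AAP1 had 18.1, 15.96 and 15.6 CPM under drought, against 30.1, 25.97 and 29.7 CPM when watered (log2 fold change -0.79 ± 0.12 SE, FDR = 0.000194), and the ABC transporter gene Mrp2 had a log2 fold change of 0.05.

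**Figure D2:**
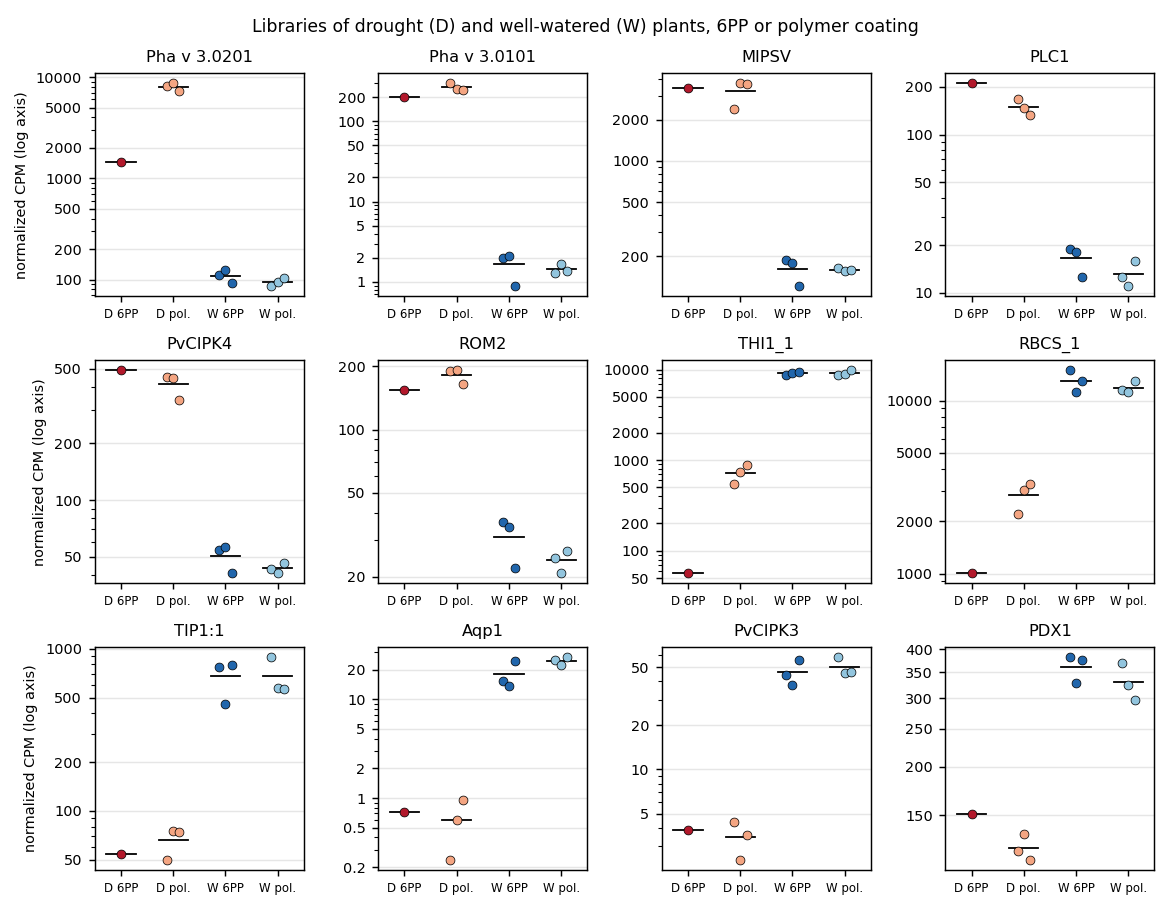
Normalized CPM on log axes of 12 called members in each library, with drought 6PP (1 library), drought polymer, well-watered 6PP and well-watered polymer (3 libraries each) from left to right. Points are libraries and black lines group means. All drought libraries lie above all well-watered libraries in the first 6 panels, up to ROM2, and below them in the other 6. The drought 6PP library lies below the drought polymer libraries for Pha v 3.0201 (1459 CPM), THI1_1 (56.8 CPM) and RBCS_1 (1006 CPM). By less, it also lies below them for Pha v 3.0101 and ROM2. It lies above them for PLC1, PvCIPK4 and PDX1.

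Photosynthesis and cofactor genes held the members that were most abundant in irrigated leaves. RBCS_1 ranked 1 and RBCS_2 ranked 6 of 27996 genes by mean TPM in well-watered polymer leaves. RBCS_1 (chromosome 4, 9077625 to 9078545) had 2215, 3045 and 3289 CPM in drought polymer libraries, against 11438, 11187 and 12973 CPM in well-watered polymer libraries, and fell with a log2 fold change of -2.06 ± 0.18 (SE, FDR = 2.62e-06). RBCS_2 (chromosome 4, 9109917 to 9111023) had 891, 1221 and 1271 CPM in drought polymer libraries, against 5478, 4957 and 5382 CPM in well-watered polymer libraries, and fell with a log2 fold change of -2.22 ± 0.18 (SE, FDR = 1.41e-06). These near neighbours share sequence, since only 27.9% and 50.1% of their reads were unique, so the split between them is uncertain. On unique reads the log2 fold changes were -2.40 and -2.31. The call of RBCS_1 was lost without drought polymer replicate 2 (-2.12) and in the 2 runs on the TPM scale. The drought 6PP library was lower still, at 1006 and 473 CPM, against 14960, 11241 and 12936 CPM for RBCS_1 and 7834, 5398 and 6250 CPM for RBCS_2 in well-watered 6PP libraries. The phylloquinone gene MENG and the phototropin gene Pvphot1a were not called, at -0.31 and -0.22.

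Of 10 cofactor genes, 3 fell, none rose and 7 were not called, with a median of -0.35. THI1_1 (chromosome 7, 4252089 to 4253791) encodes thiamine thiazole synthase, which makes the thiazole part of vitamin B1. It had 547, 744 and 875 CPM in drought polymer libraries, against 8637, 8902 and 9816 CPM in well-watered polymer libraries, and fell with a log2 fold change of -3.66 ± 0.19 (SE, FDR = 3.92e-08). Its rank by mean TPM was 134 in drought polymer leaves and 7 in well-watered polymer leaves. The drought 6PP library had 56.8 CPM, below each drought polymer library, against 8687, 9081 and 9477 CPM in well-watered 6PP libraries. The much less abundant THI1_2 had 23.5, 18.1 and 13.6 CPM under drought, against 45.6, 22.6 and 45.8 CPM when watered, with 1 pair of libraries overlapping, and was not called. PDX1, for vitamin B6 synthesis, had 121, 135 and 115 CPM in drought polymer libraries, against 368, 325 and 296 CPM in well-watered polymer libraries (log2 fold change -1.41 ± 0.12 SE, FDR = 1.46e-06). LIP1_2, a lipoyl synthase gene, had 25.4, 23.1 and 23.5 CPM in drought polymer libraries, against 58.4, 52.1 and 60.9 CPM in well-watered polymer libraries (log2 fold change -1.25 ± 0.10 SE, FDR = 8.09e-07). The other lipoyl synthase genes, LIP1_1 and LIP1P, had log2 fold changes of -0.45 and -0.26. The iron-sulphur assembly gene NBP35 and the ubiquinone gene COQ6 were higher at FDR values of 8.78e-05 and 9.53e-05 (log2 fold changes 0.71 and 0.58) but were not called.

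Starch enzymes and phosphofructokinases describe carbohydrate use. The starch branching enzyme gene pvsbe1 rose, with 1246, 1269 and 911 CPM in drought polymer libraries, against 387, 409.8 and 393 CPM in well-watered polymer libraries (log2 fold change 1.53 ± 0.15 SE, FDR = 5.61e-06). The call was lost without drought polymer replicates 1 and 2 and without each well-watered polymer library (1.44 to 1.66). The isoamylase gene PvISA3 and the starch synthase gene PvSSIII were lower at FDR values of 8.33e-05 and 0.00019, with log2 fold changes of -0.84 and -0.82, and were not called. Among the 10 phosphofructokinase genes, which act at the step from fructose-6-phosphate to fructose-1,6-bisphosphate, 1 rose and 9 were not called, with a median of 0.16. PFK_3 was that gene, with 7.63, 11.6 and 9.56 CPM in drought polymer libraries, against 0.764, 0.847 and 0.509 CPM in well-watered polymer libraries (log2 fold change 3.75 ± 0.28 SE, FDR = 6.29e-07). It was scarce in every group, at 9.44 TPM in drought polymer and 0.713 TPM in well-watered polymer leaves. In the drought 6PP library it had 1.56 CPM, above the well-watered 6PP libraries (0.989, 0.953 and 0.814 CPM) and below the drought polymer libraries. The most abundant gene of the list, PFK_6, had 159, 146 and 147 CPM under drought, against 92.5, 95.7 and 90.01 CPM when watered (log2 fold change 0.70 ± 0.14 SE, FDR = 0.00114), with no overlap but short of the Bonferroni limit. Subunits of the pyrophosphate-dependent enzyme, PFP-ALPHA, PFP-BETA_1 and PFP-BETA_2, had log2 fold changes of 0.25, 0.48 and -1.75.

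The MLO genes were the largest group with a shared symbol. MLO proteins are membrane proteins that bind calmodulin, and some of them are known in barley as susceptibility factors for powdery mildew. Of 17 genes, 16 were tested, 3 fell, none rose and 13 were not called. Of all genes tested, 7.20% were called lower and 5.12% higher. At an FDR of at most 0.05 there were 3 higher and 8 lower, against 27.3% and 28.9% of all genes tested. The median was -0.87, against -0.01 over all genes. Some of these genes had few reads. MLO_5 had 3, 1 and 6 in drought polymer and 0, 1 and 1 in well-watered polymer libraries, and MLO_9 had 0, 6 and 3 in drought polymer libraries. MLO_15 had 1.44, 2.68 and 2.58 CPM in drought polymer libraries, against 12.6, 16.6 and 15.4 CPM in well-watered polymer libraries (log2 fold change -2.74 ± 0.28 SE, FDR = 8.82e-06). MLO_3 averaged 12.1 ± 1.17 CPM in drought polymer libraries and 40.1 ± 8.49 CPM in well-watered polymer libraries (SD, n = 3 each), with a log2 fold change of -1.72 ± 0.16 (SE, FDR = 3.86e-06). MLO_10 had 26.9, 30.2 and 41.4 CPM in drought polymer libraries, against 96.6, 100.0 and 106 CPM in well-watered polymer libraries (log2 fold change -1.62 ± 0.14 SE, FDR = 2.66e-06). None of these genes overlapped between the groups, but the call of MLO_15 was lost without each polymer library (-2.90 to -2.50), that of MLO_3 without each drought polymer library (-1.83 to -1.54 over the 6 libraries left out) and that of MLO_10 without drought polymer replicate 2 (-1.57). The most abundant MLO gene, MLO_13, had overlapping groups, at 227, 223 and 217 CPM in drought polymer libraries and 233, 216 and 235 CPM in well-watered polymer libraries. MLO_2 was higher at an FDR of 0.000655 without being called, with 44.9, 47.1 and 39.8 CPM under drought, against 24.4, 28.2 and 25.8 CPM when watered.

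**Figure D3:**
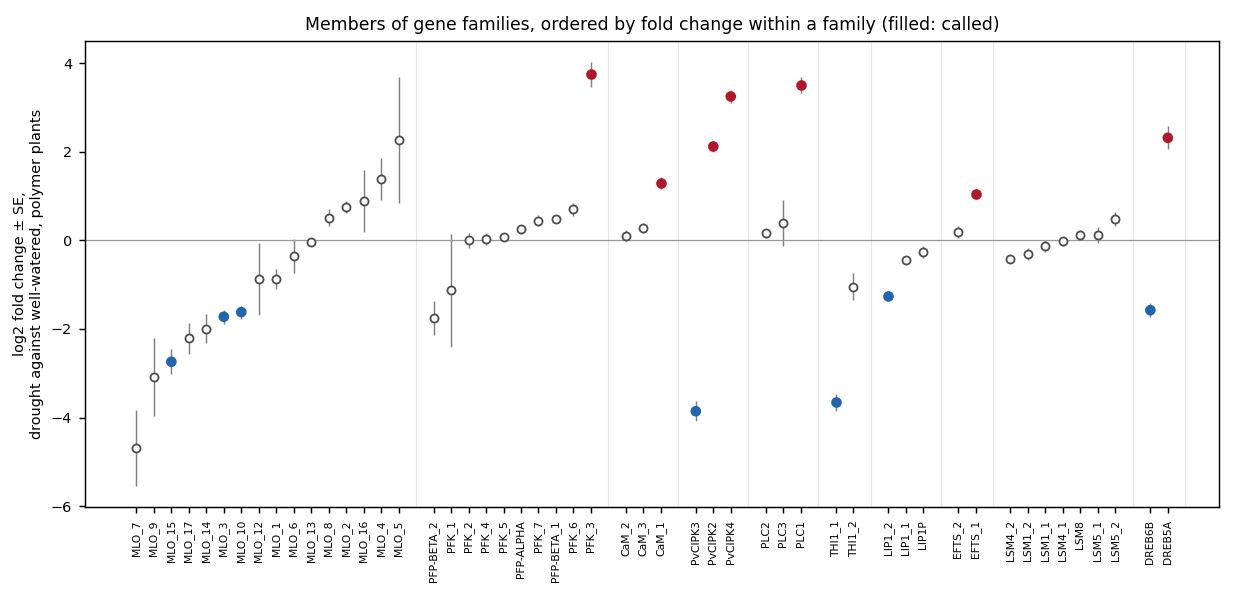
Log2 fold change with its SE in drought against well-watered polymer plants for members of gene families, ordered within each family. Filled points were called higher (red) or lower (blue) and open points were not called. Called members stand beside uncalled members of their family, as PFK_3 (3.75) does among the phosphofructokinases and PLC1 (3.50) beside PLC2 (0.16).

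The 7 LSM genes, whose proteins form rings that act in splicing and messenger RNA decay, had no called member, 1 higher and 1 lower at an FDR of at most 0.05, and log2 fold changes of -0.43 to 0.49. The 4 Mediator genes, which link transcription factors to RNA polymerase II, had none past either limit and log2 fold changes of -0.29 to 0.24. MED10, the most abundant of them, had 42.4, 42.2 and 42.4 CPM in drought polymer libraries, against 36.8, 42.5 and 43.3 CPM in well-watered polymer libraries. Of 8 translation genes, 1 was called, and 3 were higher and 2 lower at an FDR of at most 0.05. EFTS_1, an elongation factor Ts gene, was the one called higher, with 36.7, 37.6 and 33.9 CPM in drought polymer libraries, against 15.9, 18.3 and 18.4 CPM in well-watered polymer libraries (log2 fold change 1.04 ± 0.12 SE, FDR = 1.62e-05). This call was lost without each polymer library in turn (0.97 to 1.08). The cap-binding factor gene eIF4E was higher at an FDR of 0.000234 (log2 fold change 0.86) and the related eIFiso4E was at 0.25. EFTS_2, more abundant than EFTS_1 by TPM, had overlapping groups. Of 5 replication and repair genes, none was called and 2 were higher at an FDR of at most 0.05. The topoisomerase VI gene TOP6A had 16.9, 18.1 and 17.6 CPM under drought, against 12.6, 15.5 and 13.2 CPM when watered.

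Defence, phenylpropanoid and redox members were mostly scarce in these leaves. The 9 genes of polygalacturonase inhibitors and pathogenesis-related proteins had no called member among the 7 tested, and 2 were higher at an FDR of at most 0.05. The median was 0.96, and 0.10 with the genes at 0 reads in a whole group set to their bound. The inhibitor gene ppgip3 had 1.22, 1.18 and 1.16 CPM in drought polymer libraries, against 0.239, 0.104 and 0 CPM in well-watered polymer libraries (log2 fold change 3.36 ± 0.90 SE, FDR = 0.00758). Its groups did not overlap. The 5 Ypr10 genes, for PR-10 proteins, lay within chromosome 3, 27040486 to 27442923, and had at most 1.40 CPM in any library. Their unique share of reads was 66.7% for Ypr10_1, 5.00% for Ypr10_5 and 0% for the other 3, so the split of reads among them is uncertain. PVPR3, the most abundant of the list, had overlapping groups. The glutathione transferase gene GSTU2-2 had 294, 253 and 255 CPM in drought polymer libraries, against 120.4, 133 and 137 CPM in well-watered polymer libraries, a log2 fold change of 1.04 ± 0.14 (SE, FDR = 8.15e-05) that was short of the Bonferroni limit. The chalcone isomerase gene CHI had 2.15, 2.78 and 4.42 CPM under drought, against 0.835, 1.37 and 1.34 CPM when watered (log2 fold change 1.39 ± 0.36 SE, FDR = 0.00643). It was not called, and the cinnamate 4-hydroxylase gene C4H-1 had at most 10 reads in a library.

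No nitrogen or hormone gene was called, although 1 nitrogen gene was higher and 2 were lower at an FDR of at most 0.05 and both tested hormone genes were lower. The cyanate hydratase gene CYN had 86.9, 101 and 106 CPM in drought polymer libraries, against 52.002, 56.2 and 64.5 CPM in well-watered polymer libraries (log2 fold change 0.77 ± 0.11 SE, FDR = 0.000102). The asparagine synthetase gene as3 was on the other side, with 26.7, 30.4 and 33.6 CPM in drought polymer libraries, against 64.98, 58.2 and 54.1 CPM in well-watered polymer libraries (log2 fold change -0.97 ± 0.12 SE, FDR = 2.83e-05). The nucleoside hydrolase gene NSH1 had a log2 fold change of -0.56 and NSH2 of 0.06. CYP85A, for a brassinosteroid oxidase, had 15.9, 12.3 and 11.97 CPM under drought, against 30.98, 19.3 and 24.9 CPM when watered (log2 fold change -0.90 ± 0.19 SE, FDR = 0.00165). The response regulator gene RR1 was lower at an FDR of 0.000535 with a log2 fold change of -1.25. Drought and well-watered polymer libraries did not overlap for CYN, as3, CYP85A or RR1. TrNARK, the only nodule gene with enough reads, had 0.731, 1.26 and 1.71 CPM in drought polymer libraries, against 1.86, 4.22 and 4.07 CPM in well-watered polymer libraries (FDR = 0.007).

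Of the 16 members whose symbol could not be assigned a certain meaning, 14 were tested, 2 rose and 1 fell. PFE had 669, 803 and 1004 CPM in drought polymer libraries, against 207, 258 and 198 CPM in well-watered polymer libraries (log2 fold change 1.90 ± 0.18 SE, FDR = 4.28e-06), and was lost without drought polymer replicate 2 or well-watered polymer replicate 1 or 3 (1.73 to 2.03). CYP72A302, a cytochrome P450 gene, had a log2 fold change of 1.04, and its call was lost without 5 of the 6 polymer libraries, well-watered polymer replicate 1 being the exception (0.99 to 1.12). The call of CYP72A302 was also lost under 7 other alternatives. The symbol c1pp marked the gene that fell, with 69.3, 84.9 and 79.01 CPM in drought polymer libraries, against 210.2, 185 and 199 CPM in well-watered polymer libraries (log2 fold change -1.35 ± 0.11 SE, FDR = 1.77e-06), and it was called without each polymer library in turn. The 7 other members with a certain meaning, such as the sieve element gene SEO, were all tested, and none was called, with 2 lower at an FDR of at most 0.05. MES1 had 0 reads in every drought library and 5.73, 0.950 and 6.10 CPM in well-watered polymer libraries, which is at least 61.1-fold lower in drought polymer leaves against a floor of 3 reads per library. The phosphatase gene PS2-2 had 0 reads in the drought polymer libraries and was at least 14.9-fold lower by the same floor. Neither was called. The 16 members that did not pass the filter had at most 11 reads in any library, and 9 of them had 0 reads in all 10.

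Whether the seed coating changed these genes in irrigated leaves was asked by comparing 6PP with polymer plants among the well-watered. No member was called by edgeR's quasi-likelihood test, against 0.00% of all genes. DESeq2's Wald test, edgeR's likelihood ratio test and limma also called 0 members. Among all genes tested, DESeq2 called 4, the likelihood ratio test called 4 and limma called 0. At an unadjusted p under 0.05 there were 3 members, 2.26% of the 133 against 5.50% of all genes, and the smallest FDR of a member was 0.818. With 3 libraries a group, the absence of calls does not show that the members were equal between the coatings. The median log2 fold change was 0.03 over the members and 0.01 over all genes, and the median absolute log2 fold change was 0.15 in both sets. BS1, whose meaning is uncertain, had the smallest p among the higher members, with 28.9, 33.1 and 26.7 CPM in well-watered 6PP libraries, against 21.3, 25.7 and 22.8 CPM in well-watered polymer libraries (log2 fold change 0.34, unadjusted p = 0.0126, FDR = 0.818). GSTU2-2 had 200.0, 134 and 157 CPM in well-watered 6PP libraries, against 120.4, 133 and 137 CPM in well-watered polymer libraries (log2 fold change 0.33, unadjusted p = 0.0402, FDR = 0.877). ROM2 followed at a log2 fold change of 0.37 with overlapping groups. On the lower side, LSM4_2 had 38.8, 34.7 and 39.9 CPM in well-watered 6PP libraries, against 44.5, 43.2 and 48.1 CPM in well-watered polymer libraries (log2 fold change -0.26, unadjusted p = 0.0163, FDR = 0.842). In LSM4_2 and BS1 the groups did not overlap. In GSTU2-2 they overlapped, by well-watered 6PP replicate 2. Pvphot1a and PFK_5 came next, at -0.29 and -0.16. None of the 27 members called under drought had an unadjusted p under 0.05 between the coatings. THI1_1, for example, had 8687, 9081 and 9477 CPM in well-watered 6PP libraries, against 8637, 8902 and 9816 CPM in well-watered polymer libraries.

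The comparison of coatings under drought rested on the drought 6PP library and had no replicate check. Counted were members at least 0.6 on the log2 CPM scale from the drought polymer mean and outside the range of the 3 drought polymer libraries. There were 22 above (16.5% of 133) and 31 below (23.3%), against 18.0% and 25.4% of all genes tested. On log2(TPM + 1), on which the median of all genes was at -0.26 in place of -0.09, there were 8 above and 35 below, so the balance of directions depended on the scale. The members farthest below were THI1_1 (-3.64), the sieve element gene SEO (-3.15) and the replication helicase gene MCM7 (-3.12). SEO had 0.447 CPM in the drought 6PP library, against 6.40, 2.95 and 4.30 CPM in drought polymer libraries. MCM7 had 0.223 CPM in the drought 6PP library, against 2.23, 2.39 and 2.29 CPM in drought polymer libraries, and 1.75 to 2.42 CPM in all well-watered libraries. The fatty acid desaturase gene O6FAD also lay below, at 31.4 CPM in the drought 6PP library, against 179, 206 and 187 CPM in drought polymer libraries.

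The members farthest above, among those with a mean of at least 1 CPM in either group, were HHHT (2.51), PFE (1.71) and MLO_6 (1.66). HHHT, a symbol of uncertain meaning, had 73.02 CPM in the drought 6PP library, against 9.003, 13.9 and 16.8 CPM in drought polymer libraries, and its drought 6PP value was within the span of the well-watered libraries, 38.8 to 73.9 CPM. PFE had 2668 CPM in the drought 6PP library, against 669, 803 and 1004 CPM in drought polymer libraries. MLO_6 had 2.90 CPM in the drought 6PP library, against 0.817, 0.869 and 0.989 CPM in drought polymer libraries. GSTU2-2 and the nucleoside hydrolase gene NSH1 were higher by 1.29 and 1.04, at 654 and 89.7 CPM in the drought 6PP library, against 294, 253 and 255 CPM and 42.9, 43.2 and 44.9 CPM in drought polymer libraries. Over the scales and libraries left out, these differences kept their sign, with 2.11 to 2.70 for HHHT, 1.37 to 1.86 for PFE, 0.77 to 1.73 for MLO_6, -3.95 to -3.49 for THI1_1, -3.42 to -1.69 for SEO and -3.15 to -1.11 for MCM7. By list, 4 of 8 translation genes lay below and none above, against 25.4% and 18.0% of all genes tested. These were EFTS_2, EIF6, GATB and GATC (-1.25 to -1.01). Each stayed below on every scale, but all scales use the same drought 6PP library. Of 16 MLO genes tested, 7 lay above and 4 below, against 18.0% and 25.4% of all genes tested. Over the scales and libraries left out, MLO_4 and MLO_6 stayed at 0.77 or higher. The lowest differences of MLO_5, MLO_7, MLO_12, MLO_14 and MLO_16 were 0.01 to 0.44. MLO_5 had 11 reads in the drought 6PP library, against 3, 1 and 6 in drought polymer libraries. In the same libraries MLO_7 had 8 reads against 0, 8 and 6, and MLO_12 had 24 reads against 4, 2 and 11. With so few reads, the places of MLO_5, MLO_7 and MLO_12 above are uncertain. Those below, MLO_1, MLO_3, MLO_8 and MLO_13, stayed at -0.61 or lower. None of the 8 calcium signalling genes lay outside by 0.6, against 18.0% of all genes tested above and 25.4% below. On log2 CPM each of their differences was positive, with a median of 0.36. PvCBL1 (0.59), CaM_2 (0.57) and PvCBL2 (0.57) lay above every drought polymer library, just short of the limit.

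**Figure D4:**
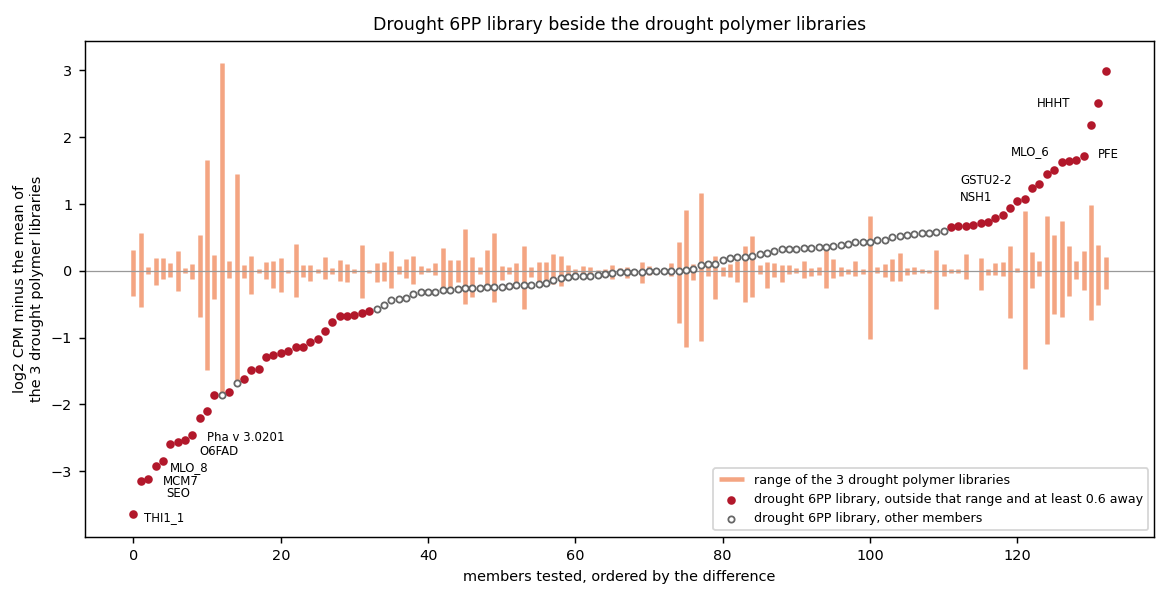
Log2 CPM of the drought 6PP library minus the mean of the 3 drought polymer libraries for the 133 tested members, ordered by that difference. Orange bars span the 3 drought polymer libraries, and red points lie outside that span and at least 0.6 away. THI1_1 is the lowest at -3.64, and HHHT is among the highest at 2.51. The highest point, Ypr10_5, had few unique reads.

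In 6PP plants the drought library was also set against the 3 well-watered 6PP libraries, which share no library with the polymer comparison. Of the 14 members called higher in polymer plants, 13 lay above all 3 well-watered 6PP libraries in the drought 6PP library, against 92.9% of all genes called higher. The exception, CYP72A302, lay below them, with 13.1 CPM in the drought 6PP library, against 19.5, 22.8 and 19.6 CPM in well-watered 6PP libraries. In polymer plants it had 37.4, 41.1 and 42.7 CPM under drought, against 21.9, 18.8 and 18.3 CPM when watered. All 13 members called lower in polymer plants lay below the well-watered 6PP libraries, against 95.5% of all genes called lower. The members' shares were thus near those of all called genes, and the difference between the coatings in the response to drought was not tested.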

How the data were processed

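RNA from leaf pools was sequenced as paired reads on an Illumina instrument. According to the methods, the authors trimmed and aligned reads in CLC Genomics Workbench to a bean genome named BAT93; the tables name no assembly, and coordinates are given as listed. The deposited tables hold whole-number read counts per gene, and TPM and RPKM values that the authors' software computed from exon reads. Total gene reads, which include reads placed at several sites, were tested, and TPM was used to compare genes. RPKM served only to estimate the mapped reads of each library, together with exon reads and exon lengths. The share of mapped reads on genes rests on that estimate. Replicates 1 and 2 of drought 6PP plants were not analysed here, because their files hold 13 unused tables with no label for the sample, apart from 1 equal in every cell to replicate 3.

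Counts of 10 libraries were fitted with edgeR 4.0.16 (R 4.3.3; TMM, filterByExpr, quasi-likelihood test, 1 mean for each of the 4 groups), with p-values adjusted over all 22398 genes kept. SE was the log2 fold change divided by the root of F. The drought 6PP library was compared on log2 CPM with a prior count of 2. Alternatives were DESeq2 1.42.0, the likelihood ratio test, limma 3.58.1 with TPM pseudocounts of 1 and 0.1 on the log2 scale, and further normalizations, filters, read classes, limits and left-out libraries. Named genes were, in each list, up to 3 called members in each direction by size and the member highest in TPM, all aquaporins, the 3 smallest p-values in each direction between coatings, and the 3 members farthest in each direction in the drought 6PP library among those of at least 1 CPM; other genes named were chosen after their values were seen. The members and lists were chosen with earlier results of these data known. The fit was tested on simulated data. A floor is 3 reads per library, and covers counting error only. No member matched the RefSeq gene table, and no sequence is shown.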

Additional observations from a re-analysis of the deposited data

Results flagged for a closer look

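PFK_5, a phosphofructokinase gene, was on opposite sides in the comparison of coatings under the 2 water regimes. It had 134 CPM in the drought 6PP library, against 82.6, 77.6 and 82.0 CPM in drought polymer libraries, and 68.2, 68.3 and 68.7 CPM in well-watered 6PP libraries, against 85.8, 70.2 and 74.0 CPM in well-watered polymer libraries. The log2 difference between coatings under drought exceeded that in watered plants by 0.893, and this difference was not tested, since drought 6PP plants had 1 library. Such opposite sides were found for 5 of the 133 members (3.76%) and for 3.77% of all genes tested. PFK_5 was not the widest of these members. The scarce ppgip2, with 16 reads in the drought 6PP library, had log2 differences of 0.59 in watered plants and -2.20 under drought.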

How the results depend on the processing

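The 27 members called between drought and well-watered polymer plants became 46 with DESeq2's Wald test, 46 with edgeR's likelihood ratio test, 76 at an FDR of at most 0.05 alone and 55 without the Bonferroni limit. Over all 22398 genes tested, the 2760 called became 6225, 6298, 12588 and 8126 in the same order. With 1 polymer library left out, 16 to 21 members and 1668 to 2130 of all genes tested were called. Both counts were lowest without drought polymer replicate 2. The other alternatives run called 21 to 29 members and 2144 to 3066 of all genes tested. Deviations from the group means correlated at r of -0.0918 to 0.156 in 9 pairs of same-numbered libraries. In 18 pairs of different numbers r was -0.146 to 0.138. These overlapping ranges do not settle whether the numbers mark matched libraries. With a replicate block 21 members were called. For the named members, 708 of 774 comparisons with an alternative kept direction and side of the limits, and 62 kept direction only. Another 4 passed the limits only under the alternative (GSTU2-2 and CYN by DESeq2 and by the likelihood ratio test), and 0 reversed. These members were named by their values in the same libraries that the alternatives refit, so these counts are no independent check. Between the coatings in watered plants, 0 members were called under every alternative run. Of 133 members, 4 by DESeq2, 4 by the likelihood ratio test and 7 and 5 by limma (pseudocounts 1 and 0.1) had an unadjusted p under 0.05. In the same order, 1366, 1384, 1546 and 1457 of all genes had such a p. The genes tested were 22398 for DESeq2 and the likelihood ratio test and 22352 for limma. For the drought 6PP library the count outside the drought polymer range was 43 to 57, with 28 above and 29 below under RLE normalization, and 11 above and 41 below on log2(TPM + 0.1). Depth limits the scarce members, such as the Ypr10 genes. One library cannot give the spread among drought 6PP pools.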
